A study of Homo sapiens with 16 samples.

Results

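The genes that encode the protein subunits of the cytosolic ribosome were followed in SW620 cells, a colorectal cancer cell line, through ATF4 knockdown and treatment with 5-fluorouracil (5-FU). Members were all protein-coding genes of the deposited count table whose symbols have the form of a large subunit (RPL), small subunit (RPS) or stalk (RPLP0 to RPLP2) protein, together with RPSA. The rule gave 85 of 58735 genes, of which 53 belong to the large and 32 to the small subunit. 83 members passed a filter on low counts. RPL10L and RPL39L had no count in any library and were not tested, and RPL3L, the muscle form of RPL3, had 0 to 15 counts per library.

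A cytosolic ribosome contains one copy of nearly every one of these proteins, and a surplus of a single subunit protein is normally degraded. Most of their messenger RNAs are known to start with an unbroken run of pyrimidines, the 5′ terminal oligopyrimidine (TOP) tract, through which mTORC1 and the RNA-binding protein LARP1 control their translation and stability together. 5-FU is known to be incorporated into RNA and to disturb ribosomal RNA processing. ATF4 is a transcription factor of the integrated stress response, which lowers general translation.

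Poly(A)-selected RNA was sequenced from 16 libraries in 6 groups. SW620 cells with a scramble hairpin (shScramble, the negative control) and SW620 cells with a hairpin against ATF4 (shATF4) were each left without drug, or were given 5 µM 5-FU for 24 h or 48 h, with 3, 3 and 2 libraries per line. Both lines carry a hairpin, and each is represented once, so the knockdown of ATF4 cannot be told apart from other differences between these 2 lines. The labels do not give the time in culture of the untreated cells, so time and drug cannot be told apart. The 4 libraries titled 48 h carry a treatment label of 24 h, and were grouped by their titles. The labels do not say that replicates came from separate cultures, so a p-value reflects the spread among libraries, which may be technical. The study asked what ATF4 does in the development of resistance to chemotherapy.

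Libraries held 14571611 to 17824188 counts. ATF4 was lower in each shATF4 library (178.7 CPM at most) than in any scramble library (270.1 CPM at least). CPM here are counts relative to the library total after TMM scaling, a correction for library composition, and changes are log2 ratios from one edgeR quasi-likelihood fit with Benjamini-Hochberg adjustment over 17309 genes, called at an adjusted p under 0.05. Of the epithelial markers, EPCAM, CDH1, KRT8, KRT18, KRT19 and VIL1 had at least 175.9 CPM in every library, CDX2 and CEACAM5 had 11.1 to 35.6 and 3.61 to 18.7 CPM, and CDX1 had 0 to 2 counts. Of the blood cell markers PTPRC and CD3E had 0 to 3 counts and CD14 had 1 to 19. Of the fibroblast markers LUM had 22.3 to 42.5 CPM and COL1A1 7.24 to 21.9 CPM, whereas COL1A2 and DCN had 0 to 3 counts. Of the endothelial markers PECAM1 had 19 to 105, VWF 23 to 151 and CDH5 0 to 8 counts. 2 libraries stood apart. Replicate 2 of the untreated scramble cells had 1.42% of its counts in mitochondrial protein-coding genes, against 0.753% and 0.766% in the other two. Replicate 3 of the shATF4 cells at 24 h had 0.0713% in RN7SL genes, against 0.0224% and 0.0241%, and the counts and medians of members in comparisons with the shATF4 24 h cells are given with and without it.

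The start windows of 9 members are shown first, because the TOP tract is the sequence feature by which these messages are known and because the paralogs that moved differently under 5-FU are set beside the members that fell most. Each window runs from 15 bases before to the 15th base from the RefSeq start on GRCh38.p14, 5′ to 3′ on the strand of the gene, and capitals mark the longest run of C and T.
RPL3: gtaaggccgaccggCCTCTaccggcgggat
RPL10A: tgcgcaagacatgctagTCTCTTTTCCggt
RPL12: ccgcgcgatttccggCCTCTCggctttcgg
RPL13A: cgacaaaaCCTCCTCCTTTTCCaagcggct
RPLP0: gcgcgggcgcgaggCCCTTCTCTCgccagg
RPS6: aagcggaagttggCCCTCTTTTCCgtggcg
RPL22L1: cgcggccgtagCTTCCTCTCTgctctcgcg
RPL7L1: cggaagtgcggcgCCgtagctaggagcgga
RPS27L: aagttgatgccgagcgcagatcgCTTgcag
The windows lie at chr22:39319609-39319638 (RPL3, minus strand), chr6:35468386-35468415 (RPL10A, plus), chr9:127451392-127451421 (RPL12, minus), chr19:49487593-49487622 (RPL13A, plus), chr12:120201097-120201126 (RPLP0, minus), chr9:19380222-19380251 (RPS6, minus), chr3:170870181-170870210 (RPL22L1, minus), chr6:42879601-42879630 (RPL7L1, plus) and chr15:63157463-63157492 (RPS27L, minus). The runs of RPL13A and RPS6 are 14 and 11 bases long, and those of the paralogs RPL7L1, RPS27L and RPL22L1 are 2, 3 and 10 bases long. RPL3, the member that fell most, has a run of 5 bases at this annotated start.

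A start was listed for 68 of the 85 members, with the longest run over all listed starts counted once per gene. A run of at least 6 pyrimidines stood in the window of 59 of these 68 members (86.8%), against 35.8% of 27305 genes in the same table. It stood in 3 of the 6 listed paralogs, with RPL36AL at 15 bases, and in 56 of the 62 other members. A run of at least 8 stood in 53 members (77.9%), against 16.5% of all genes. On the other strand 8 members (11.8%) had a run of at least 6, against 32.9% of all genes. The letters CCGGAAG, which GABP and other ETS factors recognise, were found on either strand of the 300-base promoter window (250 bases before the start and 50 after) in 24 members (35.3%), against 12.2% of all genes. AAGATGGC, the core letters of a YY1 site, were found in 7 members (10.3%), against 3.52%. TTGCATCA, a composite CEBP and ATF4 element, was found in 1 member (1.47%), against 1.08% of all genes. A match is a description and not a site, and CCGGAAG and AAGATGGC can overlap in the letters AAG. Members with a run of 8 or more and members with a shorter run had like medians 48 h after 5-FU in scramble cells, -1.23 over 53 members and -1.27 over 14 tested members on the log2 scale.

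In untreated scramble cells these 85 genes took 6.22%, 5.81% and 6.21% of all counts. The share was 4.23%, 4.16% and 4.22% after 24 h of 5-FU, and 3.04% and 3.05% after 48 h. In shATF4 cells it was 6.16%, 6.16% and 6.14% without drug, 4.40%, 5.02% and 6.50% at 24 h, and 3.61% and 3.35% at 48 h. The groups did not overlap between any of the times in scramble cells. In shATF4 cells the 48 h libraries lay lowest, and the 24 h group ran from just above the scramble cells at 24 h to above all untreated libraries, with replicate 3 at the top. These shares are of unscaled counts in bulk RNA, where less of these messages and more of all others cannot be told apart, nor can fewer cells of a kind and less RNA per cell. The labels name no spike-in.

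**Figure D1:**
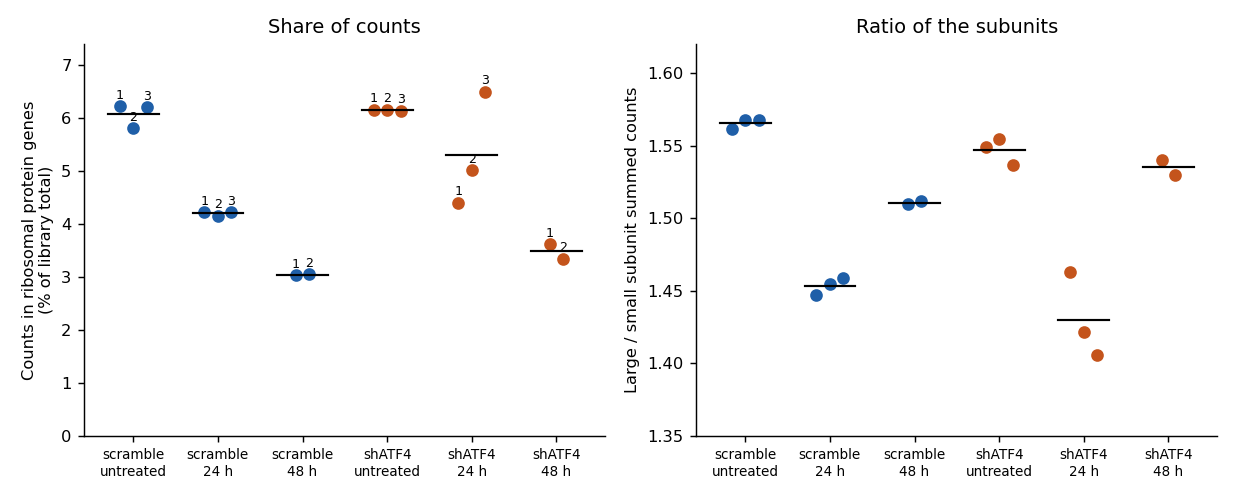
The left panel plots the percent of each library's counts in the 85 ribosomal protein genes and the right panel the ratio of summed large to small subunit counts, with 1 point per library (replicate numbers beside the points on the left), black lines at group means, scramble in blue and shATF4 in orange. In scramble cells the share falls from a mean of 6.08% to 4.20% and 3.04%, the shATF4 24 h libraries spread from 4.40% to 6.50%, and the right axis does not start at 0.

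Large and small subunit genes fell side by side, with small shifts in their ratio. In untreated scramble cells summed large subunit counts were 1.57 ± 0.00363 (SD, n = 3) times the small subunit counts, at 24 h 1.45 ± 0.00581 (SD, n = 3) times, and at 48 h 1.51 ± 0.00182 (SD, n = 2) times. The ratios in shATF4 cells were 1.55 ± 0.00918 (SD, n = 3), 1.43 ± 0.0295 (SD, n = 3) and 1.54 ± 0.00741 (SD, n = 2). Without replicate 3 the shATF4 ratio at 24 h was 1.44 ± 0.0295 (SD, n = 2). In both lines the 24 h libraries were the lowest and did not overlap with either other time. In the fit, the median change at 48 h in scramble cells was -1.28 over 51 large and -1.25 over 32 small subunit members.

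Nearly all ribosomal protein messages had a lower relative level in scramble cells given 5-FU than in untreated ones, and most were lower at 48 h than at 24 h. At 24 h 72 of 83 members were lower and 0 higher, with a median of -0.68 (1.60-fold), where 22.2% of all genes tested were lower and 21.8% higher, and the median over all genes was -0.01. At 48 h 77 members were lower and 0 higher, with a median of -1.27 (2.42-fold), where 30% of all genes were lower and 30.6% higher, and the median of all genes was 0.03. Between 24 h and 48 h 62 members were lower and 1 higher, with a median of -0.55, where 19.5% of all genes were lower and 18.8% higher. The 24 h and 48 h comparisons share the untreated libraries. 27 members had a mean of at least 1000 CPM in untreated scramble cells, 9 at 24 h and 1, RPS2, at 48 h.

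RPL3, an early-assembling protein near the peptidyl transferase centre, fell most at both times. It had 1925, 1884 and 1894 CPM in untreated scramble cells, 618.5, 628.9 and 608.3 CPM at 24 h, and 421.8 and 407.5 CPM at 48 h. The 3 groups were far apart with little spread, and the change was -1.62 ± 0.05 (SE, adjusted p = 2.03e-14) at 24 h and -2.20 ± 0.06 (4.58-fold, adjusted p = 3.64e-16) at 48 h. The gene lies at chr22:39312882-39320389 on the minus strand of GRCh38 (GENCODE v29).

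RPL10A and RPL12, the latter part of the stalk base, came next, and as for RPL3 most of the log2 change was present at 24 h. RPL10A had 690.2, 581.2 and 692.7 CPM without drug, 223.9, 218.1 and 229 CPM at 24 h, and 185.5 and 175.2 CPM at 48 h. RPL12 had 650.8, 623.4 and 676.1 CPM without drug, 258.2, 259.9 and 260.9 CPM at 24 h, and 174.8 and 185.3 CPM at 48 h. Neither gene's groups overlapped. RPL10A changed by -1.55 ± 0.10 (adjusted p = 9.39e-11) and -1.86 ± 0.11 (adjusted p = 1.61e-11), and RPL12 by -1.32 ± 0.12 (adjusted p = 2.05e-08) and -1.85 ± 0.14 (adjusted p = 4.75e-10). RPL3, RPL10A and RPL12 are known for keeping their own levels in check through alternative splicing coupled to nonsense-mediated decay. RPL13A, known for silencing inflammatory transcripts when released from the ribosome, changed by -1.20 and -1.75 (adjusted p = 2.86e-13 at 48 h). RPL27A changed by -1.67 (adjusted p = 4.55e-09) at 48 h.

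**Figure D2:**
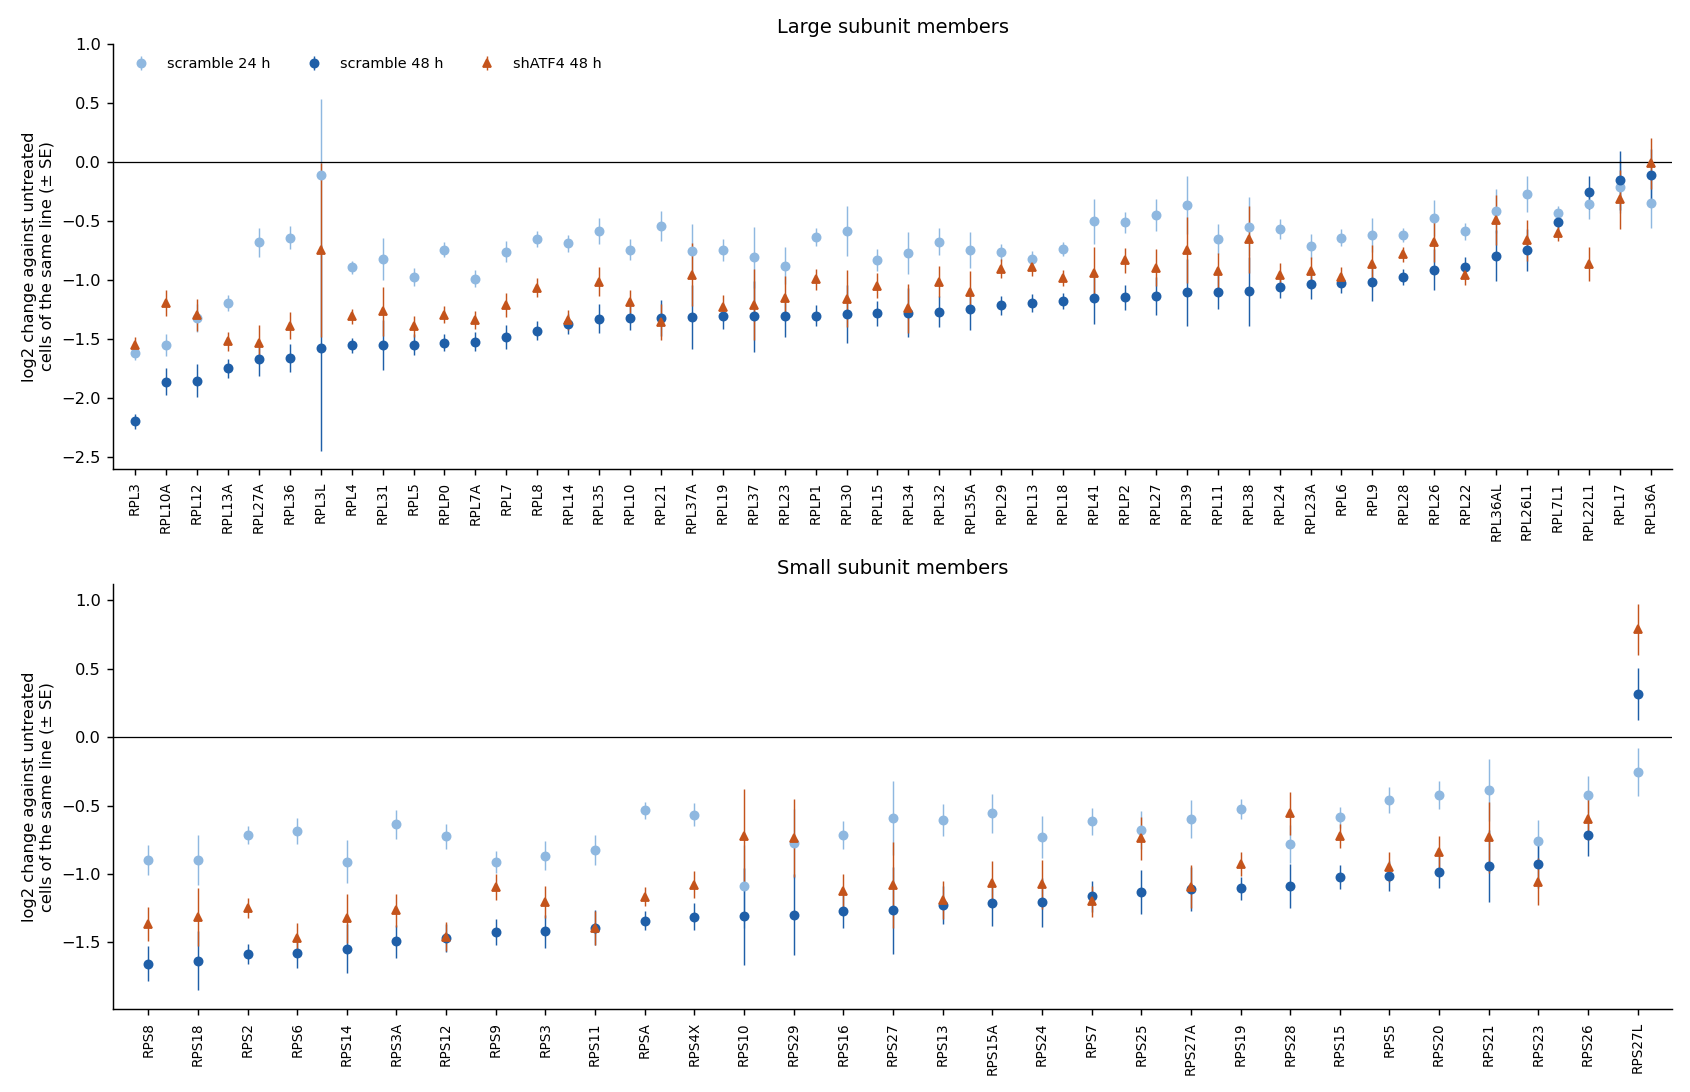
Log2 change with its standard error for the tested large subunit (upper panel) and small subunit (lower panel) members reported by name, in scramble cells at 24 h (light blue) and 48 h (dark blue) and in shATF4 cells at 48 h (orange triangles), each against untreated cells of the same line and ordered by the scramble 48 h value. RPL3 lies lowest at -2.20, nearly all points are below 0, and RPS27L, RPL36A, RPL17 and RPL22L1 stand at the right ends.

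The acidic stalk proteins, which recruit elongation factors, fell together. RPLP0 had 2433, 2343 and 2506 CPM without drug, 1427, 1495 and 1433 CPM at 24 h, and 821.7 and 859.1 CPM at 48 h, with no overlap. Its change at 48 h was -1.53 ± 0.07 (adjusted p = 4.01e-13), beside -1.30 ± 0.09 for RPLP1 (adjusted p = 1.29e-10) and -1.15 ± 0.10 for RPLP2 (adjusted p = 7.5e-09).

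RPL5 and RPL11 form the 5S ribonucleoprotein, which binds MDM2 when ribosome assembly fails. RPL5 had 1166, 1099 and 1240 CPM without drug, 592.2, 585.5 and 609.5 CPM at 24 h, and 394.4 and 405.1 CPM at 48 h. RPL11 had 673.4, 601.6 and 688.1 CPM without drug, 415.9, 409.6 and 425.0 CPM at 24 h, and 299.7 and 310.7 CPM at 48 h. Both genes' groups were separate, and the changes at 48 h were -1.55 ± 0.09 (adjusted p = 6.51e-12) and -1.10 ± 0.15 (adjusted p = 1.89e-06). RPL23, another MDM2 binder, changed by -1.30 (adjusted p = 3.85e-06), and RPL10, which joins last in the cytoplasm, by -1.32 (adjusted p = 5.42e-10). RPL41, the shortest member with a coding length of 75 nt, changed by -1.15 ± 0.22 (adjusted p = 0.000149).

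Small subunit genes of known roles followed. RPS6, the substrate of S6 kinase, had 1441, 1214 and 1456 CPM without drug, 883.1, 786.6 and 884.1 CPM at 24 h, and 463.8 and 453.4 CPM at 48 h, again with no overlap. Its change was -0.69 ± 0.09 (adjusted p = 5.95e-06) and -1.58 ± 0.11 (adjusted p = 1.57e-10). RPS14 and RPS19, whose loss causes 5q- syndrome and Diamond-Blackfan anaemia, changed by -1.55 (adjusted p = 2.71e-07) and -1.11 (adjusted p = 6.27e-10) at 48 h. RPS3, which also has a role in DNA repair, changed by -1.42, the X-linked RPS4X by -1.31, and RPSA, the laminin receptor precursor, by -1.34, each with an adjusted p of 2.46e-09 or less. RPS26, at the messenger RNA exit site, was among the small subunit members that fell least, by 0.72 on the log2 scale with an SE of 0.15 (adjusted p = 0.000378). It had 406.0, 401.4 and 420.1 CPM without drug and 246.8 and 251.4 CPM at 48 h.

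6 members were not called lower in scramble cells at 48 h, and they fall into 2 kinds. RPS27L, RPL22L1 and RPL3L are paralogs. The other 3 share at least 90% of their coding length with another gene on the same strand, among them RPL17 100% with the readthrough gene RPL17-C18orf32 and RPL36A 94.3% with RPL36A-HNRNPH2. RPL17 had 57 to 146 and RPL36A 66 to 183 counts per library, and RPS10, which was called lower and shares 92.1% with RPS10-NUDT3, had 12 to 46. No label used here says how reads falling on both genes were counted, so the values of all 4 members with such an overlap are uncertain. The 8 paralogs and these 4 were set aside, a division made after the values were seen. Of the rest, 73 of 73 members were lower at 48 h in scramble cells and 72 of 73 in shATF4 cells. Of all genes tested 30% and 28.7% were lower. The count in scramble cells follows from the division, because all 6 members not called lower there were set aside. RPL22 and RPL26, among these 73, share 59.9% and 71.0% of their coding length with other same-strand genes. Their values are uncertain to that extent.

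Among the paralogs, RPS27L is known as a p53 target. It had 24.5, 19.6 and 28.2 CPM in untreated scramble cells, 21.7, 19.0 and 19.9 CPM at 24 h, and 31.0 and 28.9 CPM at 48 h. In shATF4 cells it had 22.6, 22.9 and 23.0 CPM, then 17.3, 21.0 and 34.2 CPM, then 43.8 and 35.1 CPM. In both lines the 48 h libraries lay above all untreated ones. The change at 48 h was 0.32 ± 0.19 in scramble cells (adjusted p = 0.159) and 0.79 ± 0.19 in shATF4 cells (adjusted p = 0.00112), and the difference between the lines did not pass the test (0.47 ± 0.27, adjusted p = 0.427). Its parent RPS27 changed by -1.27 ± 0.32 (adjusted p = 0.00167) and -1.08 ± 0.31 (adjusted p = 0.00551).

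RPL22L1, which RPL22 is known to repress, had 19.1, 17.6 and 23.2 CPM in untreated scramble cells and 17.2 and 16.2 CPM at 48 h, a change of -0.26 ± 0.14 (adjusted p = 0.125). In shATF4 cells it had 23.8, 20.1 and 18.8 CPM without drug and 12.4 and 10.6 CPM at 48 h, and fell by 0.86 on the log2 scale with an SE of 0.15 (adjusted p = 3.68e-05). The difference between the lines was -0.61 ± 0.20 (adjusted p = 0.123), and RPL22 itself changed by -0.89 and -0.95. RPL7L1 had 476.4, 426.2 and 504.8 CPM without drug and 336.9 and 321.5 CPM at 48 h in scramble cells, and changed by -0.51 ± 0.07 (adjusted p = 2.31e-06) beside -1.48 ± 0.10 for RPL7. RPL26L1 changed by -0.74 (adjusted p = 0.000965) beside -0.91 for RPL26, and RPL36AL by -0.79 (adjusted p = 0.00352).

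**Figure D3:**
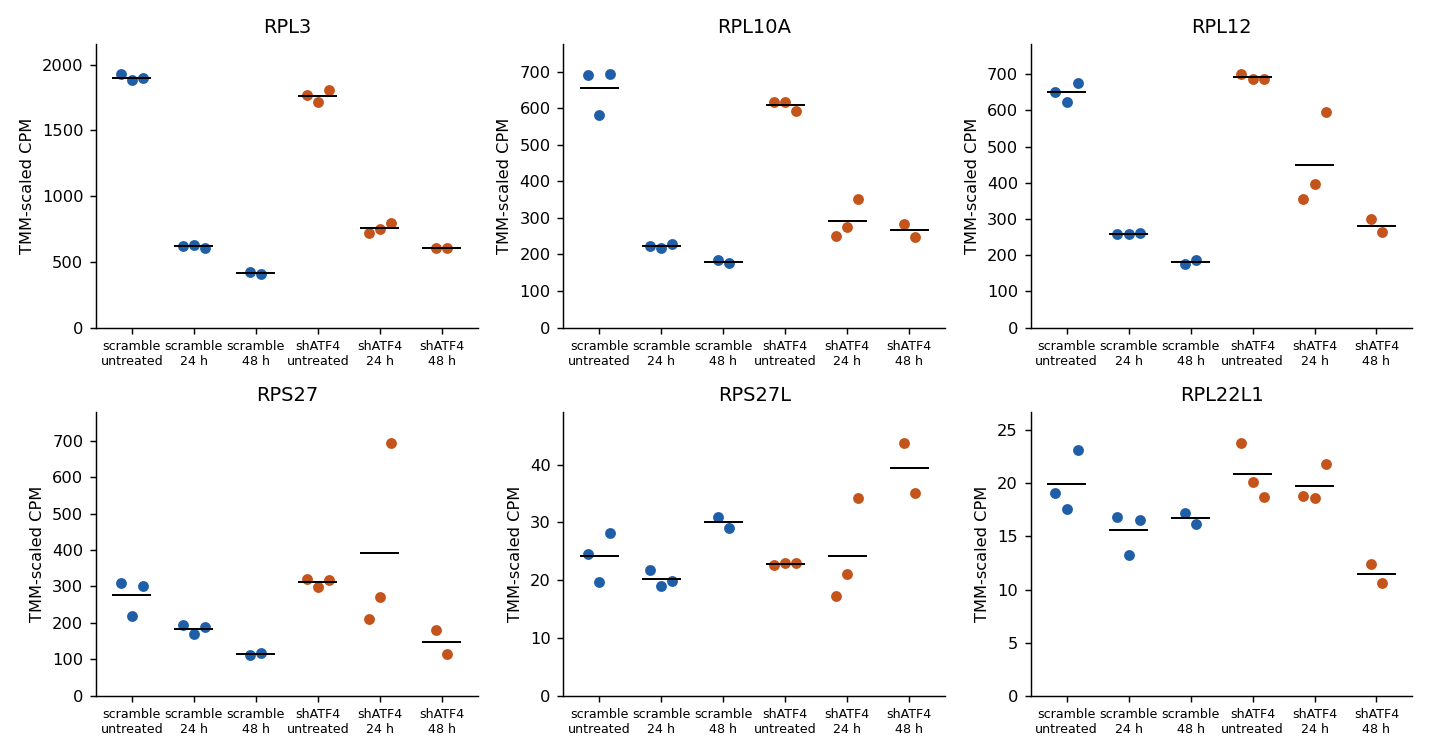
TMM-scaled CPM of 6 members in every library, on axes that start at 0, with 1 point per library, black lines at group means, scramble in blue and shATF4 in orange. RPL3, RPL10A and RPL12 drop within 24 h, RPS27 has 1 shATF4 24 h library at 694.7 CPM, RPS27L is highest in the 48 h libraries, and RPL22L1 is lowest in the shATF4 48 h libraries.

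In shATF4 cells the same genes fell by 48 h. 75 members were lower and 1, RPS27L, higher, with a median of -1.06 (2.09-fold), where 28.7% of all genes were lower and 29.6% higher. 74 members were called lower in both lines, 96.1% of the 77 of scramble cells and 98.7% of the 75 of shATF4 cells. The overlap of calls over all genes was not counted, so these 2 shares do not show a trait particular to the members. From 24 h to 48 h 75 were lower and 1 higher, with a median of -0.82, where 24.5% of all genes were lower and 23.7% higher. Without replicate 3 of the 24 h cells 71 were lower and 1 higher, with a median of -0.58. In that fit 8165 of 17256 genes were called, 3988 of them higher. The deepest falls at 48 h were those of RPL3, RPL27A and RPL13A, with changes of -1.55 (adjusted p = 4.98e-14), -1.53 (adjusted p = 1.79e-08) and -1.52 (adjusted p = 3.23e-12). Across the 83 members the 48 h changes of the 2 lines, which share no library, had a Pearson r of 0.87 and a Spearman rho of 0.84. The members are not independent and share sequencing depth and scaling within a library.

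At 24 h in shATF4 cells 38 members were lower and 0 higher, with a median of -0.24, where 21.2% of all genes were lower and 23.2% higher. Without replicate 3, 72 were lower and the median was -0.46, where 21.7% of all genes were lower. RPL3, RPL10A and RPL5 fell most, with changes of -1.22 ± 0.05 (adjusted p = 8.88e-13), -1.06 ± 0.10 (adjusted p = 2.04e-08) and -0.78 ± 0.08 (adjusted p = 5.92e-08), and by -1.27, -1.21 and -0.90 without replicate 3. RPS27, RPS21 and RPL39 had the highest values, 0.33 ± 0.27 (adjusted p = 0.332), 0.39 ± 0.23 (adjusted p = 0.169) and 0.42 ± 0.24 (adjusted p = 0.177), none of which passed the test. Without replicate 3 RPS21 and RPL39 were at -0.20 (adjusted p = 0.106) and -0.22 (adjusted p = 0.139). RPS27 had 211.2, 271.9 and 694.7 CPM in these 3 libraries and 319.1, 297.3 and 318.5 CPM without drug. Without replicate 3 its change was -0.37 (adjusted p = 0.0337), so that 1 library set the sign of all 3.

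Short members stood out in replicate 3. Against the mean of the scramble 24 h libraries, its median was 0.98 over the 28 members with a coding length of 75 to 399 nt, 0.75 over the 27 of 405 to 564 nt, and 0.50 over the 28 of 576 to 1281 nt. In replicate 1 the 3 medians were 0.11, 0.10 and 0.11, and in replicate 2 they were 0.31, 0.31 and 0.26. Other protein-coding genes with at least 50 CPM showed the same order in replicate 3, with medians of 0.42, 0.22 and -0.01 in the short, middle and long class. Their medians in replicate 2 followed that order over a smaller range, 0.14, 0.11 and 0.04, and in replicate 1 they were -0.01, 0.01 and 0.04. Replicate 3 also had 1.45% of its counts in mitochondrial ribosomal RNA, against 1.23% and 1.14% in the other two. That share was 0.359% to 0.457% in the untreated libraries of both lines. It was 0.881% to 1.01% in the scramble libraries with 5-FU, and 0.918% and 0.955% in the shATF4 libraries at 48 h. The part of RNA quality or library preparation in these values was not tested. Longer members also fell more in comparisons of groups that do not hold this library. Over the 83 members, Spearman rho of change with coding length was -0.34 at 24 h and -0.46 at 48 h in scramble cells. It was -0.44 at 48 h in shATF4 cells. With mean CPM over all libraries rho was -0.43, -0.53 and -0.55 in the same order. The part of length or level in the falls was not tested.

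**Figure D4:**
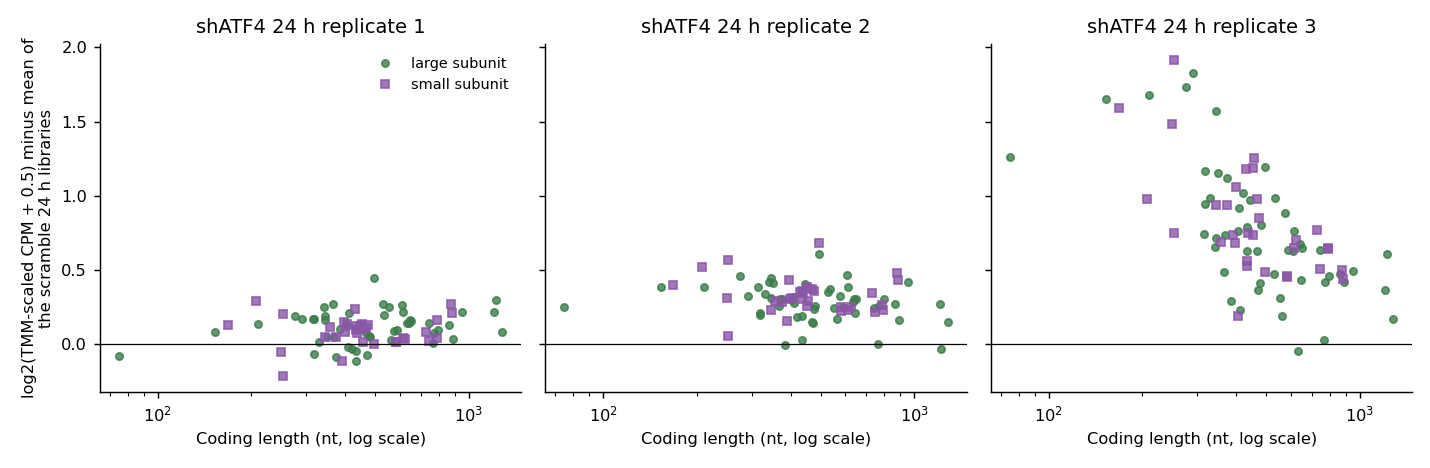
For each shATF4 library at 24 h (3 panels), the log2(TMM-scaled CPM + 0.5) of each tested member minus the mean of the scramble 24 h libraries is plotted against its coding length in nt on a log axis, with large subunit members as green circles and small subunit members as purple squares. Replicates 1 and 2 are flat at medians of 0.10 and 0.30, while replicate 3 has a median of 0.70 and rises towards short coding lengths, up to 1.92 for RPS27.

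Without drug the ATF4 hairpin was not associated with a called change in any member. 0 members were called in the edgeR quasi-likelihood test, where 2.92% of all genes were called, and the median was -0.01. DESeq2 also called 0 members, and 618 of the 17309 genes. 3 of 83 members had an unadjusted p under 0.05 in the edgeR test, no more than that threshold gives without any change. They were RPL4 (-0.13), RPL8 (-0.17) and RPL18 (-0.13). Without both libraries that stood apart 2 members were called, both lower, where 891 of 17193 genes were called. Among these 2 was RPS26 (-0.22, adjusted p = 0.0137). RPS26 had 356.8, 351.3 and 356.9 CPM in shATF4 and 406.0, 401.4 and 420.1 CPM in scramble cells.

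At 24 h of 5-FU 65 members were higher in shATF4 than in scramble cells and 0 lower, with a median of 0.41, where 10.5% of all genes were higher. All 3 shATF4 libraries at 24 h also had more of their counts in RN7SL genes, 0.0224% to 0.0713%, than the scramble libraries at 24 h, 0.00424% to 0.00614%, and more in mitochondrial ribosomal RNA, 1.14% to 1.45% against 0.881% to 0.955%. The part of these in the difference was not tested. Without replicate 3 of the shATF4 cells 39 were higher, with a median of 0.21, where 1635 of 17256 genes were higher. Leaving out replicate 1, 2 or 3 of the scramble cells at 24 h gave 40, 40 and 42. In those fits 858, 1157 and 904 genes were higher. A fit of only these 2 groups gave 19, where 974 of 15398 genes were higher. With all libraries 1821 of 17309 genes were higher. RPS27, RPL37 and RPL37A had the largest differences, 1.09 ± 0.27 (adjusted p = 0.00768), 0.98 ± 0.26 (adjusted p = 0.011) and 0.96 ± 0.23 (adjusted p = 0.00673), and these were 0.39, 0.25 and 0.33 without replicate 3. RPL13A and RPL3, which are longer, differed by 0.46 ± 0.07 (adjusted p = 0.000112) and 0.29 ± 0.05 (adjusted p = 0.000855), and by 0.37 and 0.24 without replicate 3. RPL13A had 1228, 1412 and 1577 CPM in shATF4 cells, above the 1013, 1062 and 993.5 CPM of scramble cells. RPL7L1 (0.01 ± 0.06, adjusted p = 0.921) and RPL22 (0.13 ± 0.07, adjusted p = 0.212) were not called.

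At 48 h 7 members were higher in shATF4 cells, where 3.92% of all genes were higher, and 1, RPL22L1, was lower (-0.54 ± 0.16, adjusted p = 0.0352), where 5.53% of all genes were lower. The 7 were RPL12 (0.65 ± 0.15), RPL10A (0.56 ± 0.12), RPL3 (0.54 ± 0.07), RPL15 (0.39 ± 0.11), RPLP1 (0.36 ± 0.10), RPS2 (0.31 ± 0.08) and RPLP0 (0.30 ± 0.08), with adjusted p from 1.69e-05 for RPL3 to 0.0334 for RPL15. RPL12 had 299.0 and 264.2 CPM in shATF4 cells against 174.8 and 185.3 CPM in scramble cells. The median over members was 0.18, and 59 members had both shATF4 libraries above both scramble libraries, as did 27.7% of all genes. The count of called members, 8 in both directions, ranged with the libraries left out, as did the 1636 of 17309 genes called. It was 28 without replicate 3 of the shATF4 cells at 24 h, where 2463 of 17256 genes were called. It was 2 without either scramble 48 h library, where 602 and 600 genes were called. Without replicates 1 and 2 of the shATF4 48 h cells it was 3 and 5, where 789 and 743 genes were called.

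The difference between the lines in their response to 5-FU was tested itself, as an interaction. At 48 h RPL3 and RPL10A were called, 2 members higher and 0 lower, where 1.3% of all genes were higher, and the median was 0.20. RPL3 had 1765, 1717 and 1804 CPM in untreated shATF4 cells and 601.7 and 602.8 CPM at 48 h, a change of -1.55 against -2.20 in scramble cells. That difference was 0.65 ± 0.08 (adjusted p = 0.000261), and it was called in 24 of 24 alternatives, with values from 0.62 to 0.68. RPL10A had 615.8, 618.1 and 593.7 CPM without drug and 282.6 and 248.5 CPM at 48 h, a change of -1.20 against -1.86. The difference was 0.66 ± 0.15 (adjusted p = 0.0189), and it was called in 20 of 24 alternatives. RPL12 had a difference of 0.56 ± 0.19 (adjusted p = 0.125). The number of called members was 15 without replicate 3 and 5 without replicate 1 of the shATF4 cells at 24 h. In these fits 991 and 588 of all genes were called, against 475 with all libraries. The number of members was 1 without replicate 1 of the untreated scramble cells, either scramble 48 h library or replicate 1 of the shATF4 48 h cells. There 267, 173, 136 and 260 genes were called.

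**Figure D5:**
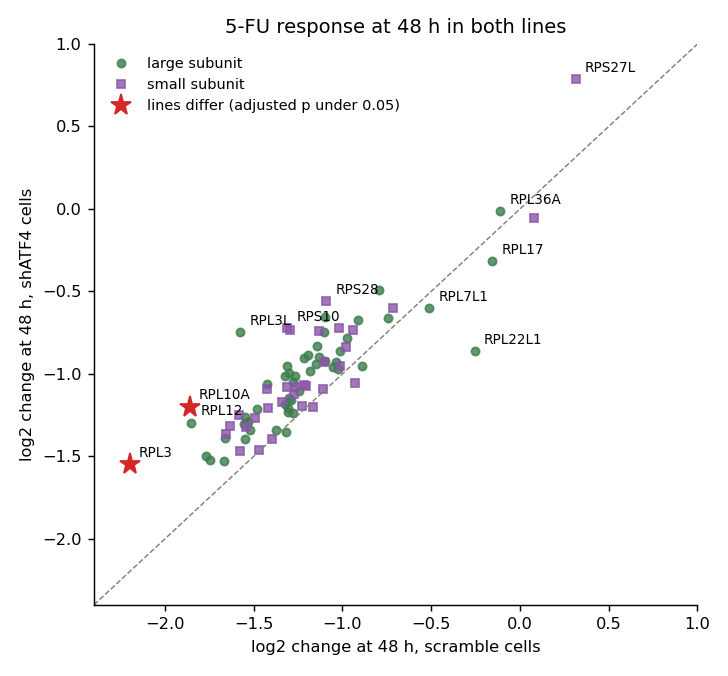
Each of the 83 tested members is plotted by its log2 change at 48 h of 5-FU in scramble cells (horizontal) and shATF4 cells (vertical), with green circles for the large and purple squares for the small subunit, red stars for the members whose response differed between the lines, and a dashed line of equal change. Most points lie a little above the dashed line, RPL3 and RPL10A lie well above it, and RPL22L1 lies below it.

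At 24 h 10 members had a called difference in response, all 10 higher in shATF4 cells, where 0.947% of all genes were higher, and the median was 0.42, or 0.22 without replicate 3 of the shATF4 24 h cells. Among them were RPL12 (0.70 ± 0.17), RPLP2 (0.52 ± 0.13), RPS15 (0.48 ± 0.11), RPL13A (0.45 ± 0.10), RPS2 (0.44 ± 0.09), RPL8 (0.42 ± 0.10), RPL3 (0.40 ± 0.08), RPSA (0.39 ± 0.09) and RPL7A (0.37 ± 0.10), with adjusted p from 0.0127 for RPL3 to 0.0441 for RPL7A. Each of those named was also called without replicate 3 of the shATF4 24 h cells, at 0.44 for RPL12, 0.34 for RPLP2, 0.35 for RPL3 and 0.29 for RPL7A. The count as a whole moved with single libraries. It was 20 without that replicate 3, 62 without replicate 1 and 3 without replicate 2 of the same group. In these fits 678, 1188 and 114 of all genes were called, against 369 with all libraries. The member count was 1, 6 and 0 without replicates 1, 2 and 3 of the scramble 24 h cells (111, 192 and 87 genes). It was 3 without replicate 1 of the untreated scramble cells, where 124 genes were called. It was 1 without either replicate 1 or replicate 2 of the untreated shATF4 cells, where 87 and 65 genes were called.

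Levels between genes were compared only per length, in the deposited FPKM. In untreated scramble cells RPL41 (1333 ± 77.6 FPKM, SD, n = 3), RPS2 (1316 ± 53.4 FPKM) and RPS12 (1284 ± 86.7 FPKM) were highest and differed by less than their spread, followed by RPL13A at 973 ± 22.5 FPKM and RPL8 at 848 ± 23.5 FPKM. The median over the tested members was 199.7 FPKM, and at 48 h it was 90.8 FPKM. Among the 85 members RPL3 moved from rank 21 to rank 44, RPL10A from 16 to 31 and RPL12 from 36 to 48. RPS26 rose from rank 45 to rank 30. The lengths behind these FPKM are those of all annotated exons of a gene merged, such as 2413 bp for RPS2 with a coding length of 879 nt, so a gene with long rare isoforms is placed lower than its message would be.

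28 of the 85 members, all of them tested, have snoRNA genes inside them, which guide modification of ribosomal RNA. 27 of these 28 were lower at 48 h in scramble cells with a median of -1.37, beside 50 of the other 55 with a median of -1.18. This comparison is a description.

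Genes around the ribosomal proteins were read from lists, whose counts at 48 h in scramble cells stand beside the 30% of all genes that were lower and the 30.6% that were higher. Of ribosomal subunits or fusions whose symbols the rule does not take, 3 of 3 were lower at 48 h in scramble cells, with RACK1 at -1.63 ± 0.08 (adjusted p = 7.83e-13) and FAU at -0.33 ± 0.13 (adjusted p = 0.0342). Of other known TOP messages 16 of 16 tested were lower, with a median of -1.14, among them the elongation factor EEF1A1 (-1.45 ± 0.07, adjusted p = 1.65e-13) and the initiation factor EIF4B (-1.37 ± 0.06, adjusted p = 2.6e-13). This list also holds those 3 genes. In shATF4 cells 15 of 16 were lower at 48 h, with a median of -1.01, where 28.7% of all genes were lower.

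Of 13 genes of mTORC1 and TOP translation control 8 were lower and 0 higher at 48 h in scramble cells, with a median of -0.48. LARP1 was at -1.04 ± 0.07 (adjusted p = 2.12e-10) and RPTOR, the mTORC1 scaffold, at -1.42 ± 0.11 (adjusted p = 1.09e-09). Chaperones of single ribosomal proteins and loaders of the 5S particle were 10 of 10 lower, with a median of -0.69, among them TSR2, the RPS26 chaperone (-1.26 ± 0.12, adjusted p = 1.56e-08), and HEATR3, which carries RPL5 (-0.89 ± 0.08, adjusted p = 1.03e-08). Of 6 transcription factors with known sites in ribosomal protein promoters 5 were lower and 1 higher, with SP1 at -0.56 ± 0.07 (adjusted p = 1.21e-06) and YY1 at -0.40 ± 0.09 (adjusted p = 0.000411).

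Mitochondrial ribosomal protein genes, which encode the separate ribosome of the organelle, were 60 of 77 lower and 1 higher at 48 h in scramble cells, with a median of -0.53 beside the -1.27 of the cytosolic members. MRPL16 was at -1.53 ± 0.10 (adjusted p = 6.8e-11) and MRPL3 at -1.18 ± 0.09 (adjusted p = 2.45e-10). At 24 h in shATF4 cells 14 of 77 were lower and 11 higher, with a median of 0.01, where 21.2% of all genes were lower and 23.2% higher. Without replicate 3, 25 were lower and 6 higher, with a median of -0.09, where 21.7% of all genes were lower and 22% higher.

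The authors' deposited table of comparisons called 77 members lower and 0 higher at 48 h and 76 lower and 0 higher at 24 h in scramble cells, where it called 33.2% and 25.1% of all genes in either direction. For shATF4 cells the authors' deposited table called 77 lower and 1 higher at 48 h, and 31 lower at 24 h, where it called 32.7% and 21.4% of all genes. Between the lines the authors' deposited table called 34 members higher and 0 lower at 24 h. At 48 h it called 33 higher and 0 lower, so RPL22L1 was not called lower there. Without drug it called 0 higher and 1 lower. Of all genes it called 7.66%, 6.13% and 1.7% in the same order. Its comparisons covered 25697 to 27767 genes, against 17309 in the edgeR fit.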

How the data were processed

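RNA was extracted from whole SW620 cultures, and poly(A) RNA was fragmented, copied from random primers and selected by fragment size, per the labels' protocols. The deposited values are raw read counts per gene for 16 libraries, which the authors obtained, per the submitters' processing notes, with featureCounts 1.5.0-p3 and GRCh38. No source used here gives the aligner, annotation release or strand setting. The gene lengths equal the merged exon lengths of GENCODE v29 for 58724 of 58735 genes. The deposited FPKM are counts per length times 1 constant per library. The authors also deposited log2 fold changes and p-values of 7 comparisons, per the file headers, with no tool named.

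Counts were fitted in 1 model of 6 groups with edgeR 4.0.16 (glmQLFit and glmQLFTest, filterByExpr with a minimum count of 10, TMM scaling) in R 4.3.3, with Benjamini-Hochberg adjustment over 17309 genes and 10 residual degrees of freedom. The genes tested held 99.9% of all counts. Simulated data with known changes were used to test the fit. 11 contrasts were made. Members and lists were chosen with earlier results of these data known. Members named with values are, in each comparison, the 3 lowest and 3 highest with a mean of at least 1 CPM, paralogs with their parents, members called in an interaction, and a list by role; from each other list the 2 genes with the smallest adjusted p at 48 h in scramble cells. FAU, RPL15 at 48 h, RPS12, RPL4, RPL18 and the members set aside for overlap were named after their values were seen. Some members and list genes are counted but not reported by name here. Coding lengths and overlaps come from GENCODE v29 and start windows from RefSeq on GRCh38.p14, whose table listed 68 of 85 members.

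Alternatives were other scalings, no filter, only the groups compared, DESeq2 1.42.0, the replicate number as a block, and leaving out each library; leaving out both libraries that stood apart, and 1 of them for the mitochondrial list, was chosen after seeing the data. Replicates differed beyond counting noise (chi-square per degree of freedom 1.84 to 31.5 over 14 pairs), so none was treated as a copy. Depth was 14571611 to 17824188 counts per library.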

Additional observations from a re-analysis of the deposited data

Results flagged for a closer look

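The members listed here responded differently to 5-FU in the 2 lines by the test of that difference (edgeR quasi-likelihood interaction with Benjamini-Hochberg adjustment), on the log2 scale, and each change was less negative or higher in shATF4 cells. At 24 h these were RPL12 at 0.70, RPLP2 at 0.52, RPS15 at 0.48, RPL13A at 0.45, RPS2 at 0.44, RPL8 at 0.42, RPL3 at 0.40, RPSA at 0.39 and RPL7A at 0.37. Over 24 alternatives RPL3 was called in 22 and RPS2 in 19, whereas RPL7A was called in 8. At 48 h these were RPL10A at 0.66 and RPL3 at 0.65.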

How the results depend on the processing

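The direction of the fall under 5-FU at 24 h and 48 h in scramble cells and at 48 h in shATF4 cells, and the number of members called there within 1.5 times, held under every alternative run. Without both libraries that stood apart the members called were 2 for the hairpin comparison without drug, 41 at 48 h, 72 for 5-FU at 24 h in shATF4 cells, and 26 and 30 for the differences in response at 24 h and 48 h. With no filter on low counts they were 22 for the hairpin comparison at 48 h, 58 for 5-FU at 24 h in shATF4 cells (52 lower and 6 higher), 62 for the difference in response at 24 h and 9 at 48 h. With only the groups compared they were 19 and 34 for the hairpin comparison at 24 h and 48 h, and 3 and 7 for the differences in response. DESeq2 called 19 for the difference at 24 h. Calls over all genes, in the same order, were 891, 3021, 7916, 647 and 1204 of 17193 without both libraries. With no filter they were 1742, 7548, 798 and 591 of 34814, and with only the groups compared 2189, 2748, 173 and 664. DESeq2 called 675 of 17309 genes. The main fit called 506, 3533 and 1636 genes for the hairpin comparison without drug, at 24 h and at 48 h. It called 7687 for 5-FU at 24 h in shATF4 cells, and 369 and 475 for the differences in response. The cause was not tested. Upper-quartile scaling gave member medians of -0.60 and -1.13 for 5-FU at 24 h and 48 h in scramble cells, -0.94 at 48 h in shATF4 cells and -0.48 from 24 h to 48 h in scramble cells. It moved the median of all genes at 48 h to 0.17 in scramble and 0.16 in shATF4 cells, and the share of higher calls among all genes from 50.5% to 61.4% and from 50.8% to 61.2%. At 24 h in scramble cells that share moved from 49.5% to 60.1%, from 24 h to 48 h in scramble cells from 49.1% to 60.2%, and for the difference at 24 h from 44.4% to 30.7%. As a percent of protein-coding counts the members' share was 4.32% in scramble cells at 24 h, 3.14% at 48 h and 6.29% in untreated shATF4 cells.

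The main fit did not pair libraries by replicate number. 8 of 36 same-number pairs and 6 of 70 others had deviations correlated above 0.1, with medians of 0.04 and -0.02. No correlation was above 0.19, and 9 of 16 libraries correlated best with their own number. These values do not settle whether the numbers pair the libraries. With the replicate number as a block, 18 members were called for the difference in response at 24 h, where 644 of 17309 genes were called. Without the block 10 members and 369 genes were called. With it the medians were -1.17 for 48 h and -0.51 for 24 h to 48 h in scramble cells.

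Leaving out 1 library at a time gave these ranges. For the hairpin comparison 0 to 1 members were called without drug, 39 to 72 at 24 h and 2 to 28 at 48 h. For 5-FU at 24 h in shATF4 cells 31 to 72 were called. For the differences in response 0 to 62 were called at 24 h and 1 to 15 at 48 h. Over all genes the hairpin comparison gave 277 to 774, 2067 to 3885 and 600 to 2463 calls. For 5-FU at 24 h in shATF4 cells that range was 6598 to 7859, and for the differences in response 65 to 1188 and 136 to 991. Member medians ran from -1.33 to -1.23 for 48 h and -0.58 to -0.55 for 24 h to 48 h in scramble cells. For the difference at 24 h they ran from 0.22 to 0.50. RPS27 at 24 h in shATF4 cells, 0.33 with all libraries, ran from -0.37 without replicate 3 (adjusted p = 0.0337) to 0.61 without replicate 1 (adjusted p = 0.0368), and was -0.37 without both libraries (adjusted p = 0.00839).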

Other observations

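Ribosomal protein pseudogenes, processed copies of these messages scattered over the genome, also have counts in the deposited table. Of 1144 such genes 89 were tested, and at 48 h in scramble cells 51 were lower and 7 higher, with a median of -1.06, where 30% of all genes were lower and 30.6% higher. RPL13AP5 was at -1.69 ± 0.08 (adjusted p = 3.49e-13), near the -1.75 of RPL13A. The pseudogenes took 0.237% of counts in untreated scramble cells, 0.171% at 24 h and 0.127% at 48 h. Reads of a parent and of a near-identical copy can be assigned to either, so the values of these pseudogenes and of their parents are uncertain to that extent.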
